A study of Mus musculus with 8 samples.

Results

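The NR4A orphan nuclear receptors and the immediate early transcription factors were examined in mouse brown adipose tissue (BAT), comparing thoracic aortic constriction (TAC) with a sham operation (Sham). The set held 10 genes, Nr4a1, Nr4a2, Nr4a3, Fos, Fosb, Jun, Junb, Egr1, Atf3 and Crem, out of 21154 genes named on the array. They were chosen by gene symbol, and every probe whose transcript belonged to one of them was taken, 13 of 55681 probes. Male C57BL/6NCrSlc mice without other treatment underwent TAC, which constricts the aorta and overloads the left ventricle, or the sham operation when 11 weeks old, and their BAT was taken at 13 weeks. One label field dates the collection 2 weeks after the operation, as these ages do, and another dates it 4 weeks after. Each group held 4 mice, with 1 one-colour Agilent array per mouse. Scanner values of 7 arrays were used, Sham replicates 2 to 4 and TAC replicates 1 to 4, while Sham replicate 1 was read from the deposited table of all 8 arrays.

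Immediate early genes are transcribed within minutes of a stimulus, without the need for new protein synthesis, and their messages are short-lived. In brown fat, noradrenaline from sympathetic nerves acts through beta-adrenergic receptors and cAMP, and the cAMP-responsive factor CREB then switches on NR4A receptors, Fos family genes and a short repressor form of Crem. Growth factor and stress signals reach Fos, Junb and Egr1 through serum response factor, and the proteins made from these genes bind DNA themselves, Fos and Jun proteins as AP-1 dimers.

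The 250 bases before the transcription start are shown for 4 members, Fos and Junb, whose levels varied together among the mice, and Nr4a1 and Nr4a2, the receptors compared first below. They come from RefSeq (GRCm38.p6) and lie at chr12:85473640-85473889 on the plus strand for Fos, chr8:84978749-84978998 on the minus strand for Junb, chr15:101266596-101266845 on the plus strand for Nr4a1 and chr2:57124004-57124253 on the minus strand for Nr4a2. Capitals mark TGACG or its complement CGTCA, the core of the cAMP response element that CREB can bind.
Fos: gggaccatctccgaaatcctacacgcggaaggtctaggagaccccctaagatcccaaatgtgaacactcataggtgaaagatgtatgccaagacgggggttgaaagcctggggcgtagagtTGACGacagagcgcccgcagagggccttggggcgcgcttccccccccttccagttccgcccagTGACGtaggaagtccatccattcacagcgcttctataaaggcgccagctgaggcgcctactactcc
Junb: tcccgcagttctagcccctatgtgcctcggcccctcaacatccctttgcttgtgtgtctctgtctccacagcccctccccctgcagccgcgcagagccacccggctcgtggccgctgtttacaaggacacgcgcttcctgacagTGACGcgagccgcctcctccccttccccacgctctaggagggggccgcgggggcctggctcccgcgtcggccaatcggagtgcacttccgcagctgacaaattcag
Nr4a1: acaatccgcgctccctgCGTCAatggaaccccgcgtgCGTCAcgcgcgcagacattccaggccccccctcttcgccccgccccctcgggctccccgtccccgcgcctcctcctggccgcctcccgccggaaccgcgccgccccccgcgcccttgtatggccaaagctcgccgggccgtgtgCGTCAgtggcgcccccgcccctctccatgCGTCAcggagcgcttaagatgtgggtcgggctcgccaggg
Nr4a2: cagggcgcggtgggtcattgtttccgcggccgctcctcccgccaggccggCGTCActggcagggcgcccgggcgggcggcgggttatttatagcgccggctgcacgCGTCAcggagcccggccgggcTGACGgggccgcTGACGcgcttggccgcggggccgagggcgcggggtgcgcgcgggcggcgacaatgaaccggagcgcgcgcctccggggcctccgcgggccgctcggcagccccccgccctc
Promoters were matched for 8 of the 10 members, all but Egr1 and Crem. This core, searched on both strands, was found in 7 of these 8, all but Jun, and in 17.8% of 32851 promoters of the same length. Nr4a1, Nr4a2 and Nr4a3 each held 4 copies, Fos held 2, beginning 129 and 66 bases before the start, and Fosb, Junb and Atf3 held 1 each. The full element TGACGTCA (1.55% of promoters), which contains the core, the AP-1 site TGANTCA (6.75%), the NR4A element AAAGGTCA (1.34%), the EGR site GCGTGGGCG (0.536%) and the CArG box (1.47%) were not found in these windows of the members. A match here is a description of letters and was not tested as a binding site.

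Levels are given as log2 intensity scaled to the 75th percentile of the same array, taken over spots in the scanner values. The table's values lay 0.172 to 0.205 above these, so a level is compared only within 1 source. Unless stated otherwise, the values of single mice come from the 8-array table, in the order of replicates 1 to 4, and the differences (TAC minus Sham) come from limma on the 7 scanner arrays, with Benjamini-Hochberg adjustment over all 33364 probes tested. On the scanner arrays, 54.5% to 64.3% of the spots were well above background, and the number of arrays limits the precision. All 17 brown adipocyte markers examined were measurable, and Ucp1, the uncoupling protein of brown fat, lay between 8.56 and 9.89 on the 8 arrays of the table. On the first principal component of the table (34.5% of the variance), TAC replicate 1 lay at 89.9 and the other arrays between -32.6 and 4.39. All 7 scanner arrays came from 1 slide, whose first row held Sham and whose second row held TAC, and row and operation cannot be told apart. In bulk tissue, fewer cells of a type and less RNA per cell cannot be told apart either.

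Of the 10 genes, 9 could be tested, and none passed an adjusted p of 0.05. No probe of the whole array passed it either (0%), with 0 of 33364 in the 8-array table as well (0%), and 0.0575 was the smallest value on the scanner arrays. By the brightest probe of each gene, 2 members were lower in TAC at an unadjusted p under 0.05, Nr4a2 and Atf3, against 8.43% of all probes. At that level 0 were higher, against 4.38%. On the 8 arrays, by the same probes, Nr4a2 alone (1 member) was lower at that level, against 9.56% of all probes. The count of 2 became 1 when Sham replicate 2 or 3 or TAC replicate 1, 2 or 4 was left out, and 4 (Nr4a2, Fos, Fosb and Egr1) without Sham replicate 4. The share of all probes at that level was not taken in these fits, so their counts have no baseline. In all, 7 tested members were lower and 2 higher in TAC, with a median difference of -0.55 beside -0.03 over all probes tested, of which 55.9% were lower. That median is the value of Egr1, which was 0.46 without Sham replicate 2. Without that array Nr4a1 (0.27), Junb (0.07) and Jun (0.53) were positive too, and Fos (-0.17) and Crem (-0.01) were close to 0. Nr4a2 (-0.81), Fosb (-0.77) and Atf3 (-0.92) stayed lower.

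**Figure D1:**
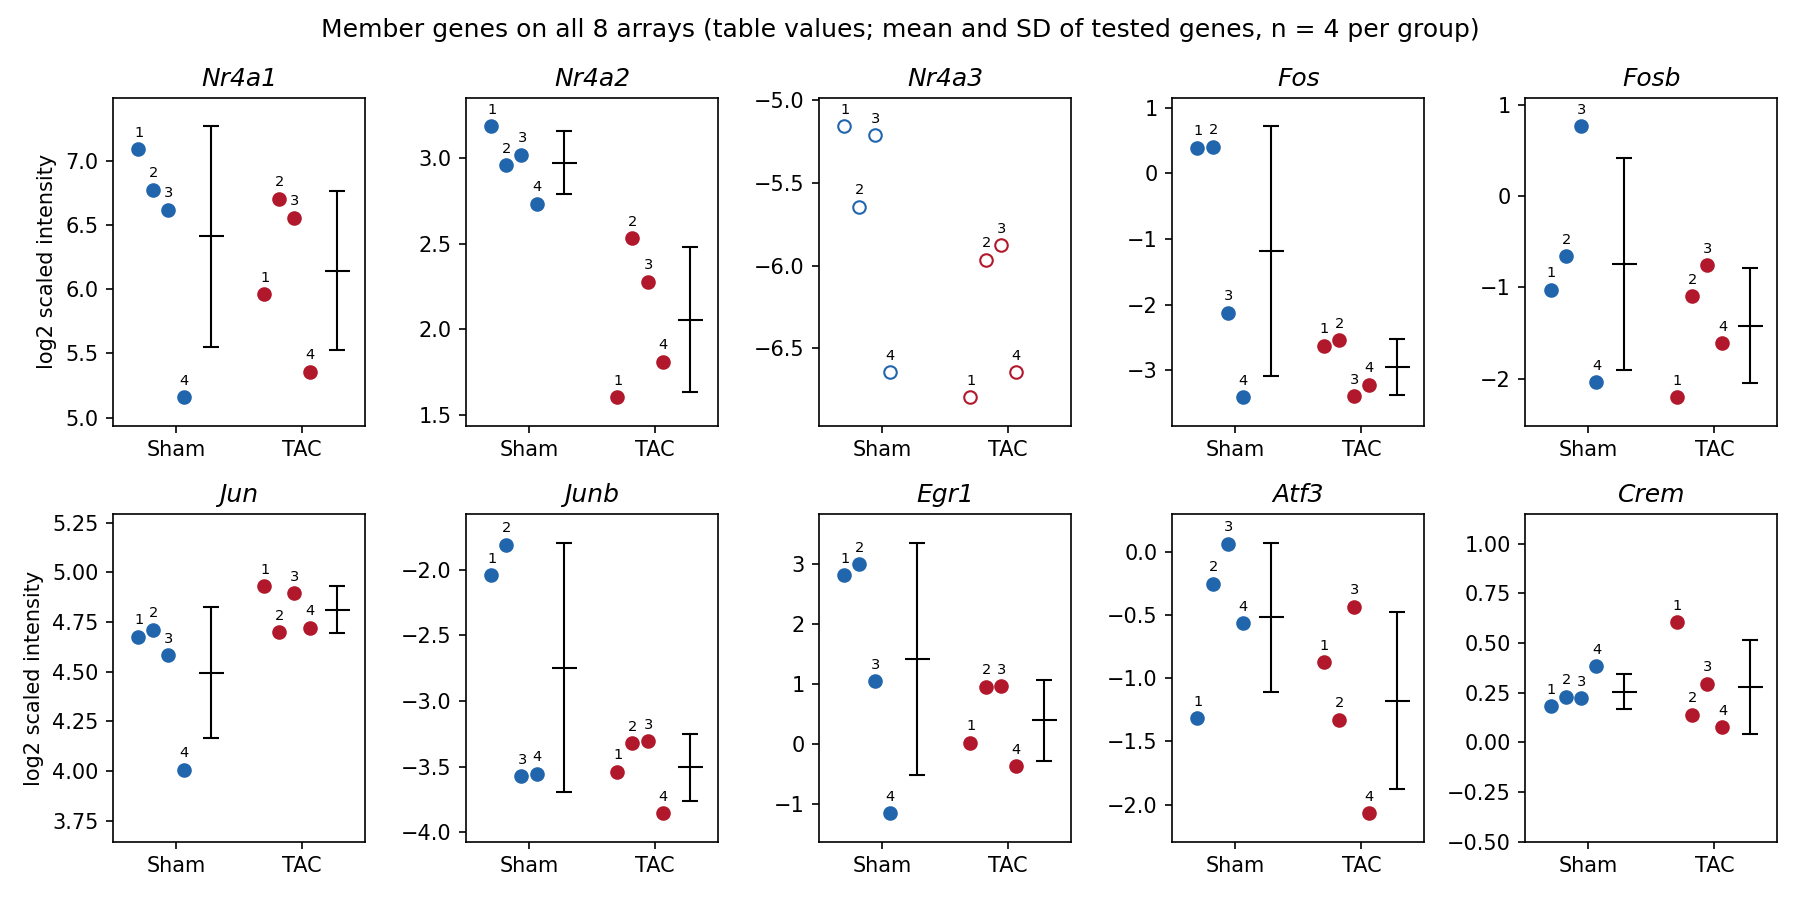
Log2 scaled intensity of the 10 genes on the 8 arrays of the table, by group, with replicate numbers at the points and bars for the mean and SD (n = 4 mice). Open circles mark Nr4a3, too dim on all scanner arrays to be tested, for which no bar is drawn. Nr4a2 is the gene whose TAC values (1.60 to 2.53) all lie below its Sham values (2.73 to 3.19), while the Sham values of Fos run from -3.41 to 0.41.

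Nr4a2, an orphan nuclear receptor also known as Nurr1, was lower in TAC by both of its probes. In Sham mice its brighter probe read 3.19, 2.96, 3.02 and 2.73. In TAC mice it read 1.60, 2.53, 2.28 and 1.81. The highest TAC value lay below the lowest Sham value, and TAC replicate 1 was the lowest of all. On the scanner arrays the Sham mean was 2.71 ± 0.15 (SD, n = 3) and the TAC mean 1.88 ± 0.43 (SD, n = 4). The difference was -0.83 ± 0.23 (SE), 1.78-fold higher in Sham, with an unadjusted p of 0.00854 and an adjusted p of 0.268 in limma. All 8 arrays of the table gave -0.92 ± 0.21 and an adjusted p of 0.215.

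The dimmer Nr4a2 probe showed the same order of groups. Its scanner values were 0.25, 0.33 and -0.08 in Sham replicates 2 to 4 and -1.09, -0.41, -0.59 and -1.14 in TAC replicates 1 to 4. The difference was -0.97 ± 0.21 (SE), with an adjusted p of 0.197 in limma. Every TAC array lay below every Sham array by this probe too, on 7 arrays and on 8, but both probes read the same RNA samples and are not separate replicates. By the brightest probe of each of the 9 tested members, Nr4a2 was the 1 gene with every TAC array below every Sham array. This held on the 7 scanner arrays (10.4% of all probes) and on the 8 of the table (6.29%). A dimmer Crem probe was also lower in this way on the 7 arrays, but not on the 8.

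Brown adipocyte markers were set beside this difference. Of the 17 markers 15 were lower in TAC, beside 55.9% of all probes, and 2 at an unadjusted p under 0.05, beside 8.43%. Their summed scaled intensity on the 8 arrays ran from 5688 to 6938 in Sham and from 4600 to 6106 in TAC, lowest in TAC replicate 1. Sham replicate 1, with the highest Nr4a2 level, had the sum of 5688, and TAC replicates 2 to 4 lay above it (6106, 5792 and 5877). By the mean log2 level relative to the Sham mean, the markers ran from -0.09 to 0.15 in Sham and from -0.91 to -0.15 in TAC. Without TAC replicate 1 the Nr4a2 difference was -0.68 ± 0.20 (SE). The part of the marker levels in the difference was not tested.

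Nr4a1, the receptor also known as Nur77, spread widely in both groups. Its values were 7.09, 6.77, 6.62 and 5.16 in Sham. In TAC they were 5.96, 6.71, 6.56 and 5.36. The groups overlapped almost completely, with replicate 4 low in each. The difference was -0.02 ± 0.48 (SE) with an adjusted p of 0.988 in limma, and -0.27 ± 0.46 on 8 arrays. Nr4a3, the receptor also known as Nor1, was not well above background on any of the 7 scanner arrays and was not tested. Its scanner values lay between -6.85 and -5.42 in Sham and between -6.94 and -6.02 in TAC, and no fold is given.

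The Fos family supplies the AP-1 subunits that need a Jun partner to bind DNA. Fos read 0.39, 0.41, -2.13 and -3.41 in Sham mice. In TAC mice it read -2.63, -2.54, -3.40 and -3.22. Sham replicates 1 and 2 were the highest of the 8 arrays, Sham replicate 3 came next, and Sham replicate 4 was the lowest, level with TAC replicate 3. The Sham values covered a 14.1-fold range and the TAC values a 1.81-fold range. The difference was -1.22 ± 0.81 (SE) with an adjusted p of 0.547 in limma, and -1.76 ± 0.84 with an adjusted p of 0.385 on 8 arrays. It was -0.17 ± 0.42 without Sham replicate 2 and -2.07 ± 0.68 without Sham replicate 4.

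Fosb, the closest relative of Fos in the set, did not follow the same mice. Its values were -1.02, -0.66, 0.77 and -2.04 in Sham, a 7.0-fold range. In TAC they were -2.20, -1.10, -0.75 and -1.61. Sham replicate 3 was the highest array, and the groups overlapped. The difference was -0.76 ± 0.66 (SE), with an adjusted p of 0.642 in limma. It was -0.05 without Sham replicate 3, the array with the highest Fosb level, and -1.46 without Sham replicate 4.

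The Jun proteins are the partners of Fos proteins in AP-1. Junb, a subunit that can restrain the activity of Jun, read -2.04, -1.81, -3.57 and -3.56 in Sham. In TAC it read -3.54, -3.32, -3.31 and -3.86. As for Fos, Sham replicates 1 and 2 stood above the other 6 arrays, which lay close together. The difference was -0.51 ± 0.43 (SE) with an adjusted p of 0.633 in limma, and it was 0.07 without Sham replicate 2.

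Jun was the member with the largest positive difference. Its values were 4.68, 4.71, 4.58 and 4.01 in Sham and 4.93, 4.70, 4.90 and 4.72 in TAC. On the 7 scanner arrays every TAC array lay above every Sham array, 1 member against 5.59% of all probes. Among the table's 8 arrays the lowest TAC array, at 4.70, lay just below Sham replicate 2, and 0 members had every TAC array above every Sham array, against 3.53%. The difference was 0.39 ± 0.17 (SE) with an adjusted p of 0.407 in limma, and 0.18 without Sham replicate 4, the lowest array.

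Egr1, a zinc finger factor induced through serum response factor, had the widest range of the set. It read 2.81, 3.0, 1.05 and -1.16 in Sham, a 17.8-fold range. In TAC it read 0.02, 0.96, 0.96 and -0.36, a 2.51-fold range. Sham replicates 1 and 2 were again the highest arrays and Sham replicate 4 the lowest of all 8. The difference was -0.55 ± 0.91 (SE) with an adjusted p of 0.813 in limma. It was 0.46 without Sham replicate 2 and -1.61 without Sham replicate 4.

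Atf3, a stress-induced member of the ATF and CREB family that mostly represses, was lower in TAC on the scanner arrays. Its values were -1.32, -0.25, 0.06 and -0.57 in Sham. In TAC they were -0.88, -1.33, -0.44 and -2.07. Sham replicate 1 lay as low as TAC replicate 2, and TAC replicate 3 lay above Sham replicate 4, so the groups overlapped. The difference was -0.91 ± 0.37 (SE), with an unadjusted p of 0.0447 and an adjusted p of 0.380 in limma. With Sham replicate 1 included, on 8 arrays, it was -0.66 ± 0.40 and its unadjusted p was 0.136.

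Crem encodes activators and repressors that bind cAMP response elements, and it had 3 probes. By the brightest probe the values were 0.18, 0.23, 0.22 and 0.38 in Sham and 0.60, 0.14, 0.30 and 0.08 in TAC, and the difference was 0.02 ± 0.14 (SE) with an adjusted p of 0.969 in limma. The groups overlapped, and the Sham spread was the smallest of the tested members. By the next probe the scanner values were -0.69, -0.68 and -0.58 in Sham replicates 2 to 4 and -1.36, -0.87, -0.78 and -1.10 in TAC. All TAC arrays lay below these Sham arrays, but the groups overlapped once Sham replicate 1 was included. The difference by this probe was -0.38 ± 0.15 (SE), with an unadjusted p of 0.0378 and an adjusted p of 0.365 in limma. The remaining probe was well above background on 1 of 7 arrays, TAC replicate 1, and was not tested. The difference by the first probe was thus smaller than its SE, while that by the next probe was negative. Which transcript forms each probe reads was not analysed here.

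**Figure D2:**
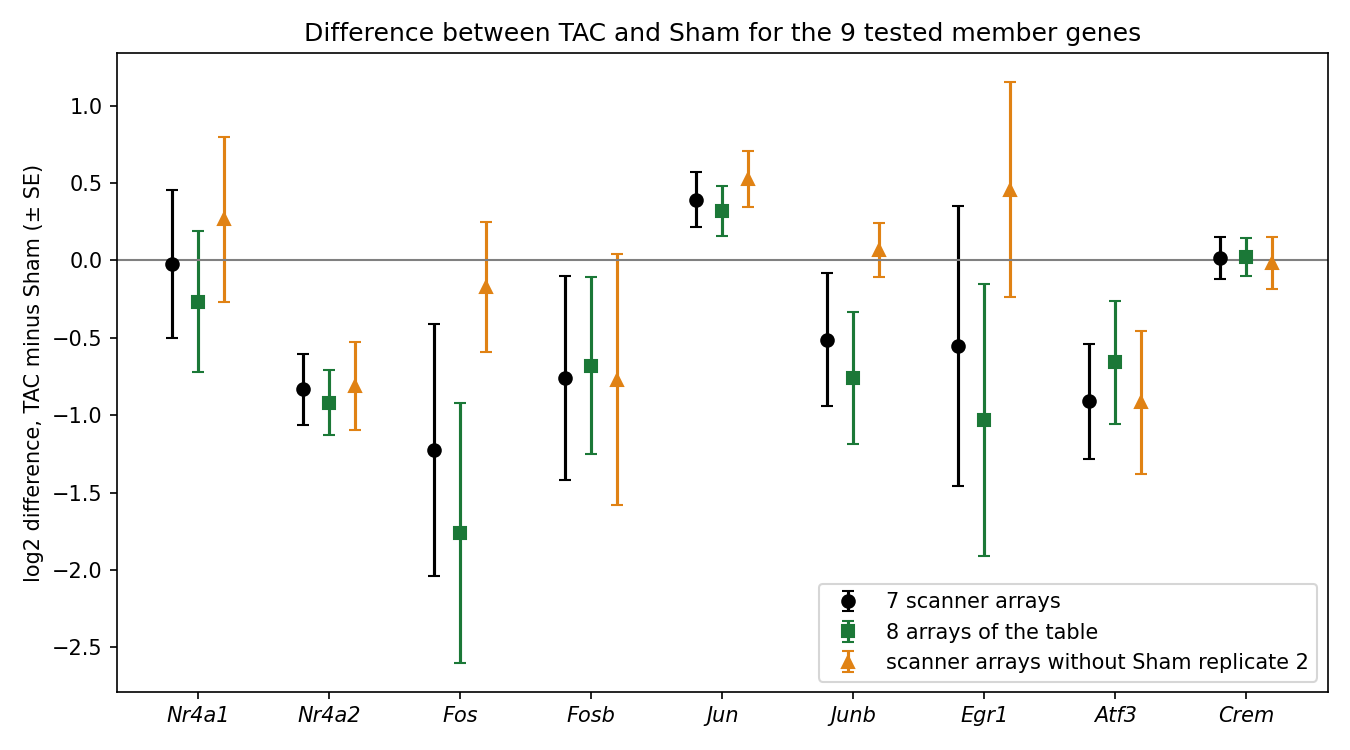
Log2 difference (TAC minus Sham) with its SE for the 9 tested genes, from the 7 scanner arrays (circles), the 8 arrays of the table (squares) and the scanner arrays without Sham replicate 2 (triangles). Nr4a2 lies between -0.92 and -0.81 in all of these, while Egr1 moves from -1.03 to 0.46.

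Several members spread widely among the Sham mice. Over all tested probes the median SD was 0.16 among the 4 Sham arrays and 0.19 among the 4 TAC arrays. The Sham SD of Fos was 1.90 and that of Egr1 was 1.93, each larger than the SD of 99.9% of the tested probes. Fosb (1.16), Junb (0.95) and Nr4a1 (0.86) exceeded 99.5%, 99.1% and 98.8% of them. Atf3 (0.59) exceeded 96.3%. The Sham SD of Jun was 0.33, that of Nr4a2 0.19 and that of Crem 0.09, larger than 84.0%, 58.9% and 19.8% of them. Among the 2000 probes nearest in mean level, these last 3 shares were 96.3%, 82.95% and 26.6%.

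Among TAC mice Fos, Egr1, Junb and Fosb exceeded a smaller share of the probes. Their TAC SD was 0.43 for Fos, 0.67 for Egr1, 0.26 for Junb and 0.63 for Fosb, larger than 82.8%, 92.3%, 64.1% and 91.4% of the probes. Nr4a1 (0.62) and Atf3 (0.70) exceeded 90.9% and 92.9% of them, and the TAC SD of Atf3 was larger than its Sham SD. Among the 2000 probes nearest in mean level, the shares were 84.15% for Fos, 97.75% for Egr1, 44.5% for Junb and 95.15% for Fosb. They were 99.15% for Nr4a1 and 96.75% for Atf3. Jun had the smallest TAC SD of the members, 0.12. The Sham SD exceeded the TAC SD in 6 of the 9 tested members, Nr4a1, Fos, Fosb, Jun, Junb and Egr1, and in 39.4% of all probes. These 6 genes share the same 8 RNA samples, and whether the spread differed between the groups was not tested. TAC replicate 1, which lay apart on the first principal component, is part of each TAC SD. The share over all probes was not taken without it.

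**Figure D3:**
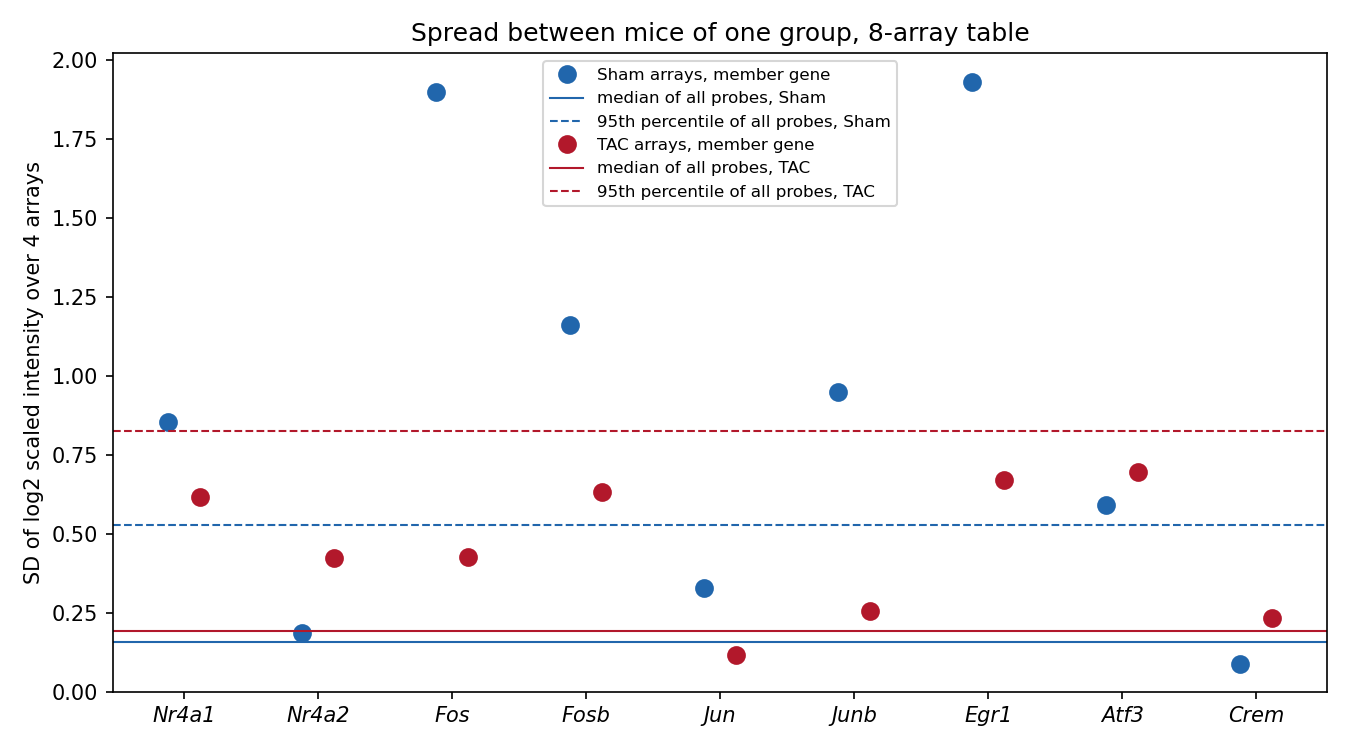
SD of log2 scaled intensity over the 4 Sham arrays (blue) and the 4 TAC arrays (red) for each tested gene, with the median (solid lines) and the 95th percentile (dashed lines) of all tested probes. Fos and Egr1 reach 1.90 and 1.93 among Sham mice, beside 95th percentiles of 0.53 in Sham and 0.83 in TAC.

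Fos, Junb, Egr1 and Nr4a1 were highest in Sham replicates 1 and 2, while Fosb and Atf3 were highest in Sham replicate 3. Nr4a1 was nearly as high in TAC replicates 2 and 3 (6.7 and 6.6), where Fos was low (-2.5 and -3.4). Over the 8 arrays the Pearson correlation was 0.94 between Fos and Junb, 0.90 between Fos and Egr1, 0.89 between Egr1 and Junb and 0.90 between Egr1 and Nr4a1. After the group mean was subtracted from each array, these correlations were 0.91, 0.91, 0.88 and 0.91. Fos and Fosb correlated at 0.31, Fos and Atf3 at 0.13, and Crem correlated negatively with Fos, at -0.22. Nr4a1 correlated with Fos at 0.69, with Junb at 0.67 and with Fosb at 0.62, and Egr1 with Fosb at 0.52. Jun correlated with Fos at 0.16 across the 8 arrays and at 0.79 after the group means were subtracted. Its correlations with Egr1 and Nr4a1 were 0.41 and 0.48 across the arrays, and 0.85 and 0.77 after the subtraction. Nr4a1 and Nr4a2 correlated at 0.55 and at 0.74 in these settings. The arrays share tissue and RNA handling, and the 7 scanner arrays share a slide, so the correlations are descriptions.

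**Figure D4:**
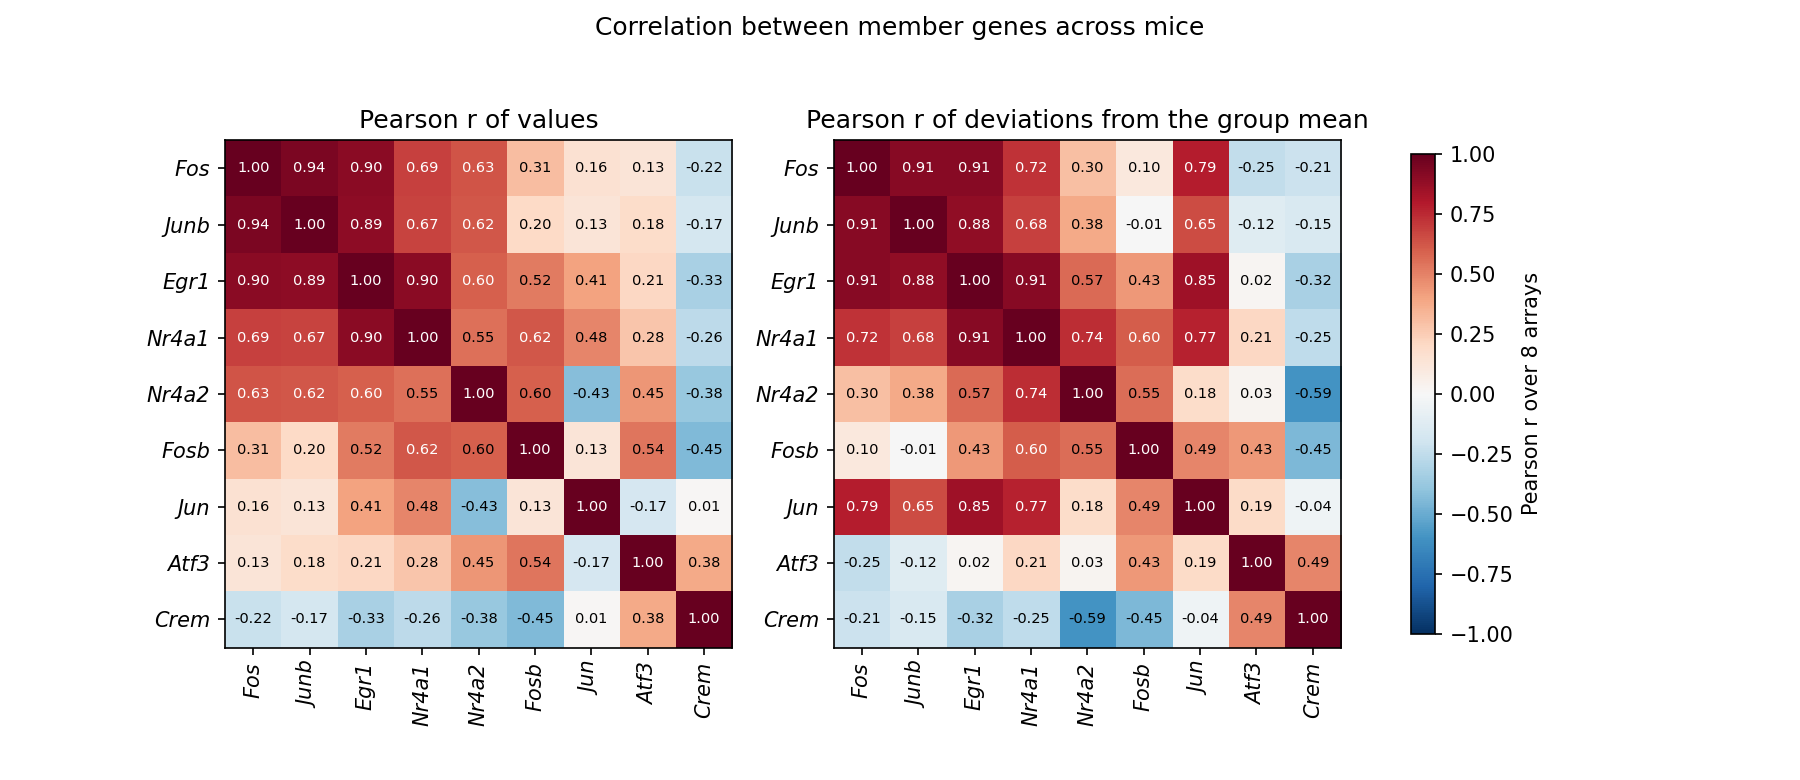
Pearson correlation between the tested genes over the 8 arrays of the table, for the values (left) and for the deviations from each group's mean (right). Fos, Junb, Egr1 and Nr4a1 form the block of high values on the left (0.67 to 0.94), and Crem has mostly negative ones. On the right Jun also reaches 0.85 with Egr1.

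Markers of other cell types were set beside these values. The summed scaled intensity of 14 skeletal muscle markers was 248.5 in Sham replicate 1 and 69.4 in Sham replicate 2, the 2 arrays with high Fos. It was 244.1 and 125.5 in Sham replicates 3 and 4, and ranged from 84.9 to 385.8 in TAC. All 14 were higher in TAC, with a median difference of 0.98, while 55.9% of all probes were lower. At an unadjusted p under 0.05, 0 of them were higher, beside 4.38% of all probes. The 14 macrophage markers summed to 63.2 to 70.2 in Sham and 53.3 to 63.3 in TAC replicates 2 to 4, but to 112.5 in TAC replicate 1. The 10 endothelial markers summed to 78.7, 80.0, 86.6 and 89.7 in Sham replicates 1 to 4, and to between 84.0 and 87.4 in TAC. These sums were lowest where Fos was high, but the mean log2 level relative to the Sham mean was not. It was 0.005, -0.017, -0.044 and 0.057 in Sham replicates 1 to 4, lowest in Sham replicate 3. Of the lymphocyte markers 9 of 12 were tested, with sums of 10.6 to 12.4 in Sham and 10.2 to 13.2 in TAC, and with B cell markers among those too dim to test. Of the neutrophil markers 5 of 10 were tested (sums of 212.0 to 250.3 in Sham, 230.1 to 247.6 in TAC), and of the erythroid markers 5 of 8 (1412 to 2172 in TAC). Bright markers weigh most in such sums, and by the mean log2 level relative to the Sham mean TAC replicate 1 stood apart for these immune lists too. It was at 1.04 for lymphocyte and 0.88 for neutrophil markers, while TAC replicates 2 to 4 lay between -0.47 and -0.16 and between -0.67 and -0.33, and Sham replicate 1 lay at 0.43 and 0.15. The erythroid sums were 1191, 1602, 1860 and 2471 in Sham replicates 1 to 4, lowest among the Sham arrays where Fos was high. The part of these markers in the spread of Fos, Junb and Egr1 was not tested.

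Relatives of the members and the route that induces them were examined as lists, none of whose genes passed an adjusted p of 0.05. At an unadjusted p under 0.05, 8.43% of all probes tested were lower and 4.38% higher, and the counts of each list stand beside these shares. Of 17 tested AP-1 and ATF relatives, 4 were lower and 0 higher at that level, with a median difference of -0.11. Atf5, which responds to amino acid and mitochondrial stress, differed by -1.05 ± 0.23 (SE, adjusted p = 0.199 in limma). On the 8 arrays Atf5 read 6.53, 6.69, 7.47 and 7.59 in Sham and 6.00, 6.43, 6.07 and 6.24 in TAC, with no overlap. The small MAF factors Maff and Mafg, partners of other leucine zipper proteins, differed by -0.40 and -0.32 (adjusted p = 0.327 and 0.356 in limma). With Sham replicate 1, on 8 arrays, the Maff difference was -0.21 and that of Mafg -0.24.

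Of the EGR family and its NAB corepressors 3 of 5 genes were tested, and 0 passed an unadjusted p of 0.05. Egr2 differed by -1.09 ± 0.71 (SE, adjusted p = 0.540 in limma), Nab1 by -0.18 and Nab2 by 0.17. Egr2 read -2.12, -1.38, -2.07 and -4.01 in Sham and -2.51, -3.24, -4.16 and -4.47 in TAC, so that Sham replicate 4 was low for it as for Egr1.

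Among 51 other immediate early genes, 9 were lower and 4 higher at an unadjusted p under 0.05, beside 8.43% and 4.38% of all probes. Their median difference was -0.08. Bhlhe40, a clock-linked repressor, differed by -1.36 ± 0.25 (SE, adjusted p = 0.197 in limma). Its values were 1.30, 1.63, 1.11 and 0.86 in Sham and 0.14, 0.14, -0.60 and -0.37 in TAC, without overlap. Csrnp1, a cysteine-serine-rich nuclear protein, differed by -0.91 ± 0.19 (adjusted p = 0.197), and its highest TAC value reached that of Sham replicate 1. Rgs2, which dampens G protein signalling, differed by 1.12 ± 0.16 (adjusted p = 0.196). Rgs2 read 7.32, 6.87, 6.26 and 6.35 in Sham and 7.64, 7.55, 7.47 and 7.72 in TAC, again without overlap.

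The cAMP and serum response factor route held 35 tested genes, with a median of -0.03. At that level 4 were lower and 2 higher, beside 8.43% and 4.38% of all probes. Map2k3, a kinase of the p38 pathway, differed by -0.38 ± 0.09 (SE, adjusted p = 0.221 in limma), the adrenergic receptor gene Adrb1 by -0.70 ± 0.26 (adjusted p = 0.348) and the adenylyl cyclase gene Adcy5 by 0.97 ± 0.32 (adjusted p = 0.318). With Sham replicate 1 the Adcy5 difference was 0.58. Of 12 genes that cAMP induces in brown fat, 1 was lower and 2 higher at that level, beside the same shares of all probes. By sign alone 10 of the 12 were lower and 2 higher, while 55.9% of all probes were lower, and their median was -0.08. Ucp1 differed by -0.61 ± 0.22 (adjusted p = 0.336), while Esrrg, a nuclear receptor of oxidative metabolism, and Vegfa, the angiogenic growth factor, each differed by 0.26 (adjusted p = 0.349 and 0.362). Among 11 partners of NR4A receptors 0 passed on either side, with a median of 0.06, and the corepressor gene Ncor1 differed by 0.19 and the nuclear receptor gene Nr2f1 by -0.22. Of 9 heat shock genes 0 passed, with a median of -0.18, and Hspd1, Hsp90aa1 and Dnajb1 differed by -0.18, -0.35 and -0.21.

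**Figure D5:**
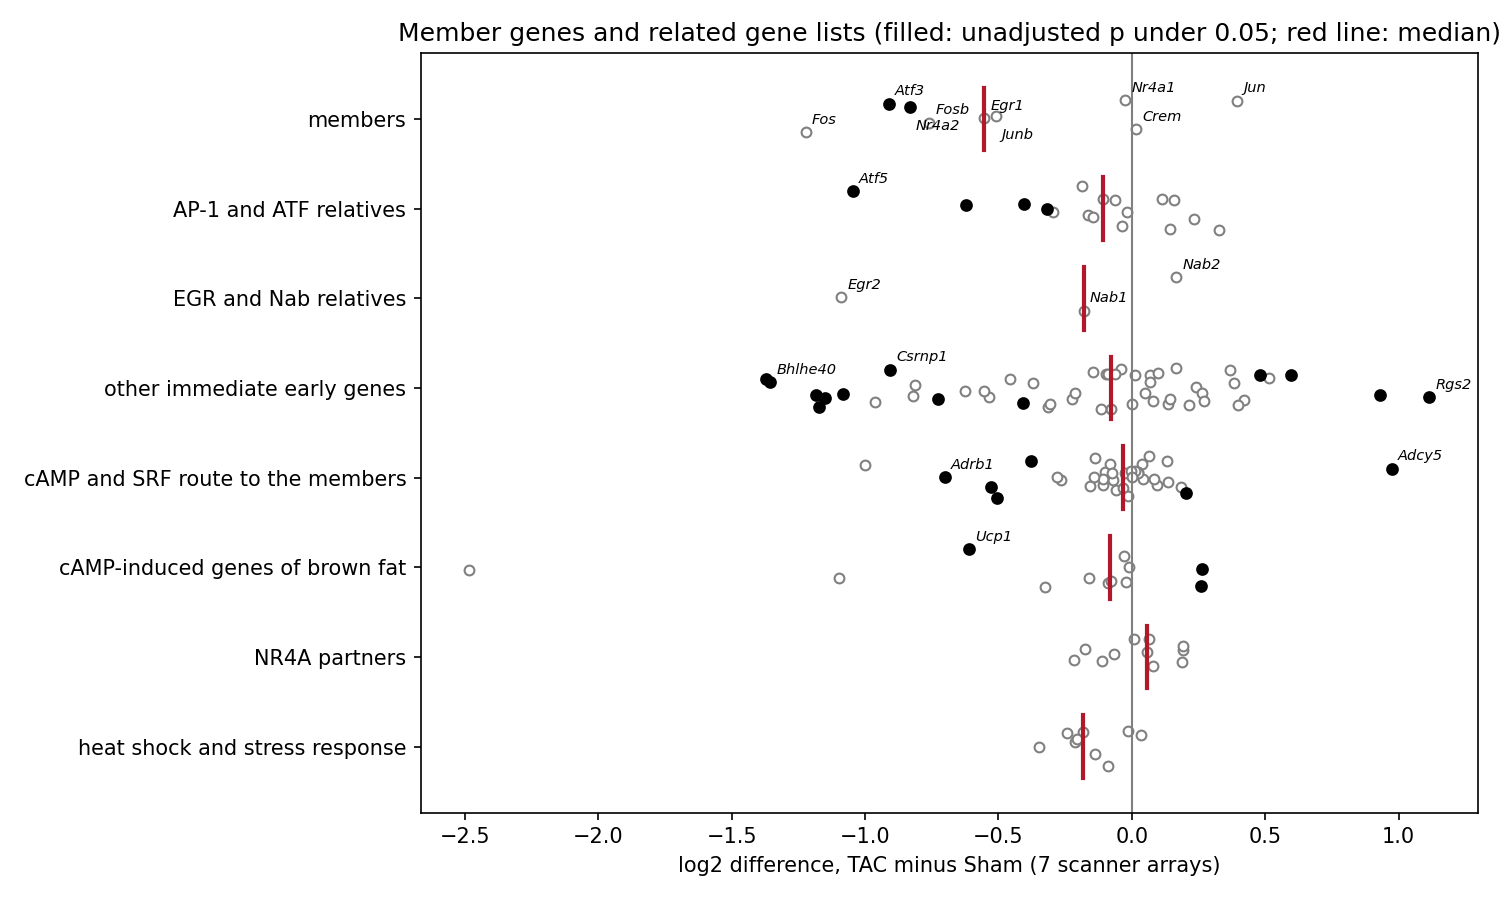
Log2 difference (TAC minus Sham, 7 scanner arrays) of the tested members and of the genes of 7 related lists, 1 point per gene, filled where the unadjusted p was under 0.05, with the median as a red line. The medians of the lists lie between -0.18 and 0.06, beside -0.55 for the members. The member median is the value of Egr1, which was 0.46 without Sham replicate 2.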

How the data were processed

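Total RNA of BAT was labelled with Cy3 and hybridised to 1-colour Agilent arrays. The deposited scanner files hold intensities, background-subtracted by the authors with Agilent Feature Extraction 10.7.1.1 (submitters' processing notes) without scaling across arrays. A deposited table covers 8 arrays with intensities already scaled, and its log2 values lay 0.172 to 0.205 above the scanner values used here, so values were compared only within 1 source. From the 59305 spots that are not controls, outlier spots (134 to 191 per array) were left out, log2 intensity minus the array's 75th percentile was taken and spots of a probe were averaged. The test took in probes that stood well above background on 3 or more of 7 arrays and had values on 2 or more per group, and was run with limma 3.58.1 (lmFit, eBayes) in R 4.3.3, a model tested on simulated data. Each gene was read by its brightest probe. Symbols came from a RefSeq table (GRCm38.p6) through transcript accessions (50.3% of 55681 probes). Probe coordinates were not used.

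All members and, per list, the 3 genes with the smallest p were named, except for items not reported here, and likeness was described by the 5 highest correlations. Members and lists were chosen with earlier results of these data known. Groups came from the labels. P-values measure the spread between these mice, 1 sample each. The alternatives were normexp background correction, median and quantile centring, the table, filters on dim probes, outlier spots, a variance trend, the methods' t-test, the replicate block, the mean of probes and each array left out. Chosen after seeing the data were array weights and leaving TAC replicate 1 out of the table. Sham replicate 1 was used only through the table. Replicate numbers were not taken to pair the mice in the main fit. Over the 3 pairs of scanner arrays the deviations from the group means correlated at 0.05, -0.07 and -0.04. Over the 4 pairs of the table they correlated at 0.27, 0.02, 0.06 and 0.02. These values over all probes cannot settle whether the mice were paired. For Nr4a1 the SE was 0.10 with the replicate block on 6 arrays and 0.54 on the same arrays without it.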

Additional observations from a re-analysis of the deposited data

How the results depend on the processing

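Of 198 values of the 9 tested members under 22 alternatives each, 17 changed sign and 181 stayed on the same side of 0 and of the threshold. Nr4a2 stayed between -0.99 and -0.68 in all of them, with an unadjusted p under 0.05 in each and an adjusted p from 0.145 to 0.648. Crem changed sign under median centring (-0.014), the replicate block on 6 arrays (-0.089), the mean of its probes (-0.18), array weights (-0.10) and the 8-array table without TAC replicate 1 (-0.084), and ranged from -0.089 to 0.080 with each array left out. Nr4a1 became 0.036 under quantile normalisation, 0.040 under the replicate block on 6 arrays and 0.17 with array weights, and ranged from -0.53 to 0.27 with each array left out. With each array left out, Egr1 ranged from -1.61 to 0.46 and Junb from -0.81 to 0.067. The count of probes lower at an adjusted p under 0.05 was 1 under normexp, median centring and array weights, and with each array left out it ranged from 0 to 1, and the count higher from 0 to 7, the upper ends without TAC replicate 4. The count of members lower at an unadjusted p under 0.05, 2 in the main setting, was 1 in the table of all 8 arrays, with no filter on dim probes, by the methods' t-test and in the table without TAC replicate 1, and ranged from 1 to 4 with each array left out. The count higher, 0 in the main setting, was 1 under normexp, quantile normalisation, the stricter filter, the variance trend and array weights (Jun), and ranged from 0 to 1 with each array left out. With the replicate block, 0 probes passed, and 2 members were lower both on 6 arrays (Nr4a2 and Atf3) and on the 8 arrays of the table (Nr4a2 and Fos, with Fos at -1.76). Except for the main setting and the table of all 8 arrays, the share of all probes at an unadjusted p under 0.05 was not taken. The counts of members under the other alternatives thus have no baseline. The cause of these changes was not tested. With 3 or 4 arrays a group, and a fit that assumes a like spread in both, the differences of Fos and Egr1 have an SE of 0.81 and 0.91, which limits what could be detected.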

Other observations

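Over the 7 scanner arrays, the genes outside the set whose pattern was most like the mean of the tested members, each scaled over the arrays, were Poglut1 (Pearson r = 0.964), H2ap (0.946), N6amt1 (0.936), Dglucy (0.936) and Ch25h (0.918), among 14977 genes compared. Poglut1, which adds glucose to NOTCH receptors, varied little, from -0.34 to -0.20 on the log2 scale. Ch25h, which makes an oxysterol, read -2.88, -3.03 and -3.85 in Sham replicates 2 to 4 and -3.58, -3.77, -3.14 and -4.65 in TAC. On the 8 arrays of the table the correlations were 0.959, 0.797, 0.797, 0.920 and 0.841. These correlations are a description and share the arrays of the members. With 14977 genes compared over 7 arrays, some values this high can arise by chance, which was not tested.

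Of 71 relatives and other immediate early genes, 4 correlated above 0.8 with Fos over the 8 arrays, Btg2 (0.88), Pim1 (0.85), Egr2 (0.83) and Zfp36 (0.83), beside 1.61% of all probes. After the group means were subtracted 5 did, Egr2 not among them (0.75), beside 2.22%. Others of the 71 ran against Fos as strongly over the 8 arrays, Nfil3 (-0.92), Rhob (-0.87) and Arid5a (-0.81). With Egr1, 1 of the 71 correlated above 0.8, Dusp4 (0.85), beside 0.851% of all probes, while Rhob (-0.90) and Cebpd (-0.84) ran against it. These genes were named after their values were seen. Btg2, an antiproliferative immediate early gene, read 1.53, 1.65, 0.59 and 0.75 in Sham and 1.07, 0.94, 0.82 and 0.84 in TAC, with the same Sham replicates 1 and 2 highest. With Nr4a2, 10 of the 71 correlated above 0.8, beside 6.38% of all probes, and 3 did after the group means were subtracted, beside 3.64%. Klf9 (-0.84), Zfp36l1 (-0.83) and Myc (-0.82) ran against Nr4a2 over the 8 arrays. The share of all probes with such negative correlations was not taken.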
